A study of Mus musculus with 9 samples.

Results

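The flat cell layer of the newborn mouse tibial growth plate was compared with both layers that border it, the round cell layer on the joint side and the hypertrophic layer on the shaft side. A gene counted as a peak when its flat signal lay above both neighbouring layers of the same litter in all 3 litters, and as a dip when it lay below both in all 3. Among the 18193 genes with a named probe set, 2317 met 1 of these rules: 1269 were peaks (6.98%) and 1048 were dips (5.76%). Of the 11313 genes bright enough to be tested, 898 were peaks (7.94%) and 851 were dips (7.52%). These shapes describe values off the gradient from round to hypertrophic cells. A comparison of 1 layer with the next does not separate them from genes that climb or decline along the plate. The rule sets no smallest gap, so genes that barely differ between layers can also meet it.

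All 9 samples came from wild-type Black Swiss pups at birth, with no transgene or treatment in any group, and each of 3 litters gave 1 round, 1 flat and 1 hypertrophic sample. A sample pooled sections of 18 to 20 tibiae, and the layers were cut by hand from unfixed frozen sections, with no step that separated chondrocytes from other cells. RNA was hybridised to Affymetrix mouse arrays, and the values are MAS5 signal intensities, a linear brightness per probe set that does not rank 1 gene against another by abundance. Differences are given as flat minus the mean of its neighbours on the log2(signal + 26) scale, so 1 unit is a doubling, and the pseudocount of 26 understates differences of dim genes.

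In the growth plate, round chondrocytes near the joint give rise to flat cells that divide and stack into columns along the bone's length, and these enlarge into hypertrophic cells before bone replaces the cartilage. Skeletal muscle lies outside the cartilage, and its fibres hold sarcomeres, in which myosin thick filaments slide along actin thin filaments anchored at the Z disc. Release of calcium from an internal store starts the contraction, and creatine kinase and mitochondria supply the ATP. Chondrocytes build no sarcomeres, and transcripts of these proteins serve here as muscle markers. Which cells of a dissected sample made them was not tested.

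Array medians lay between 123.1 and 151.6, and the number of arrays, 3 per layer, limits the precision (median standard error 0.155 for the contrast). The round array of litter 1 stood apart in its control probe sets, with a 3'/5' ratio of 4.25 for actin against 1.45 to 2.06 on the other arrays. Markers of both neighbouring layers ranked as the labels say: the joint lubricant Prg4 was highest in the round arrays (13112 to 18770, against 191 to 707 in flat), and the hypertrophic collagen Col10a1 was highest in the hypertrophic arrays (11228 to 12910, against 470 to 931 in flat). The flat columnar markers as a list were mixed, with a median difference of 0.05 from the neighbours.

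Across the tested genes, limma with litter as a block called 1092 (9.65%) at an adjusted p under 0.05, 539 higher in the flat layer (4.76% of those tested) and 553 lower (4.89%), and 2597 had an unadjusted p under 0.05. Of those higher, 411 were peaks and 128 were not, and of those lower, 332 were dips and 221 were not. The peaks that also passed the threshold against each neighbour on its own numbered 215 (1.9%), and the dips 122 (1.08%). Both single-layer contrasts share the flat arrays: against round, 949 genes were higher (8.39%) and 977 lower (8.64%), and against hypertrophic, 591 were higher (5.22%) and 692 lower (6.12%). Without the litter block the counts were 93 higher and 162 lower, with 29 peaks and 34 dips past both neighbours. Centring each array on its median moved the share of calls that were higher from 49.4% to 37%.

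**Figure D1:**
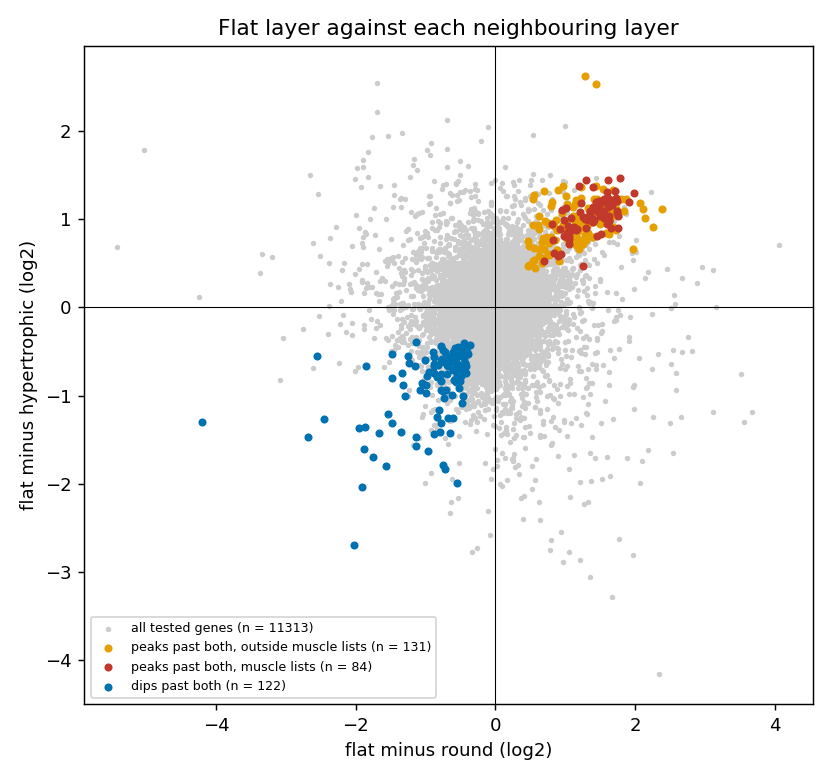
Each point is 1 tested gene, with its log2 difference flat minus round on the horizontal axis and flat minus hypertrophic on the vertical axis, and both axes use the same flat arrays. The peaks past both neighbours sit at the upper right and the dips at the lower left, and members of the muscle lists make up 84 of the 215 such peaks and 1 of the 122 such dips.

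The count past both neighbours depended on single arrays. In the fits below that leave out an array, the peak or dip rule was applied to the other 2 litters only. That is looser than the rule over 3 litters behind the main counts. Without the flat array of litter 1, 119 peaks and 56 dips were left, and without that of litter 3, 101 peaks and 76 dips. Without the hypertrophic array of litter 1, 2 or 3 there were 70, 155 and 126 peaks and 61, 49 and 46 dips, and without the round array of litter 2 there were 71 dips. At the edge of the rule, Spint2 (0.0001) and Rev1 (0.00059) were just inside as peaks, and Ndufv1 (-0.00028) and Camk2g (-0.0003) just outside, by their smallest log2 gap to a neighbour. For dips, Rsbn1 (0.00013) and Pmm2 (0.00017) were just inside and Terf2 (-1e-05) and Rabgef1 (-0.00054) just outside. A gap of at least 0.25 in each litter left 297 peaks and 172 dips.

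The other probe sets of a gene, which the rule did not use, gave a second reading from the same RNA. Of 115 other probe sets for the peaks past both neighbours, 63 were themselves peaks in all litters (54.8%, against 6.14% of other probe sets of all tested genes), and of 85 for the dips, 41 were dips (48.2%, against 5.09%).

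Genes of skeletal muscle were higher in the flat layer as a group. Across the 7 muscle lists, 165 genes were listed, 158 had a named probe set (113 peaks and 3 dips) and 144 were tested. Of these 144, limma placed 110 higher in the flat layer and 1 lower, 111 were peaks and 2 were dips, and 84 passed against both neighbours. The median difference was 1.07, against -0.01 over all tested genes. It was 1.27 against the round layer and 0.92 against the hypertrophic layer. Without the litter block, 10 of the members were called higher, and without the flat array of litter 3, 65. In these bulk samples, more muscle cells and more muscle RNA per cell cannot be told apart.

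Promoters of 5 of these peaks are shown because the muscle members move together and many muscle promoters bind MEF2 or serum response factor. They were picked by peak height among windows that hold the marked motif, so its presence in them is no result. Each run is the RefSeq window on GRCm38.p6, 250 bases before to 50 bases after the annotated start, 5′ to 3′ on the gene's strand. Capitals mark a MEF2 site in Ttn, Klhl41 and Myoz2 and a CArG box, the serum response factor motif, in Myom1 and Ldb3.

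Ttn (chr2:76982498-76982797, minus strand): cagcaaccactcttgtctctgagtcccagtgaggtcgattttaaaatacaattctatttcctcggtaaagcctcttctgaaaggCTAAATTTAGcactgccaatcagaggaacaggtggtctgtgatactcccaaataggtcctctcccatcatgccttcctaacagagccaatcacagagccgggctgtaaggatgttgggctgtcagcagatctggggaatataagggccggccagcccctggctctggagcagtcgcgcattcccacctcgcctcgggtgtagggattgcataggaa
Klhl41 (chr2:69669870-69670169, plus strand): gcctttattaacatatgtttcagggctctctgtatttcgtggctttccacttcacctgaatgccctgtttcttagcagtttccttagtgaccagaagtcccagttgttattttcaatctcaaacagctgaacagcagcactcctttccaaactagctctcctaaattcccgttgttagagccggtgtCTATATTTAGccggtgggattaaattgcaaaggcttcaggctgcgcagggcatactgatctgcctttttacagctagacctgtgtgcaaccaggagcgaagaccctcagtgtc
Myoz2 (chr3:123034938-123035237, minus strand): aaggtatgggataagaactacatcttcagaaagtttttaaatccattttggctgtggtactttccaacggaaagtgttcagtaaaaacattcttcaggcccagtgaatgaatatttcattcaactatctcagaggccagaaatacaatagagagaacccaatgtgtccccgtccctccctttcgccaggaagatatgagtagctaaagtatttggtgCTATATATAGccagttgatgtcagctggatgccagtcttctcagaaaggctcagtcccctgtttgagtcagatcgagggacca
Myom1 (chr17:71019307-71019606, plus strand): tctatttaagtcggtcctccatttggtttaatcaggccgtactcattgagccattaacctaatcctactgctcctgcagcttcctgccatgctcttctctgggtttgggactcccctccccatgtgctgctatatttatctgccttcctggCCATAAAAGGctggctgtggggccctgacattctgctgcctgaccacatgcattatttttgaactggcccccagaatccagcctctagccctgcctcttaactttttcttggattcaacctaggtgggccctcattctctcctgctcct
Ldb3 (chr14:34588632-34588931, minus strand): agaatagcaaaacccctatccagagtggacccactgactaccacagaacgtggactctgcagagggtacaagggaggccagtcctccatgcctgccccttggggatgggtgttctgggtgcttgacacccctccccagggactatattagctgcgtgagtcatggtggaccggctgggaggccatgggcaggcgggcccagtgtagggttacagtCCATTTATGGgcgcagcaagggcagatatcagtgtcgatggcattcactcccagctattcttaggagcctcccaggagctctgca

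The first marked base lies at -166 from the start in Ttn, at -63 in Klhl41, at -33 in Myoz2, at -99 in Myom1 and at -35 in Ldb3. RefSeq windows were found for 61 of the 84 muscle peaks past both neighbours, 75 windows in all, and both strands were searched. A MEF2 site was in 12 of the 75 windows (16%), against 3.19% of all 32851 windows, and a CArG box was in 5 (6.67%), against 1.63%. The E-box CANNTG, the motif of MyoD and its relatives, was in 84% against 72.3%, and TATAAA, which can overlap a MEF2 site, was in 18.7% against 13.6%. In 140 windows of 106 tested muscle list genes, called or not, the shares were close to those of the peaks: 12.1% for MEF2, 5% for the CArG box, 80% for the E-box and 18.6% for TATAAA. In 134 windows of 100 dips past both neighbours the shares were 1.49% for MEF2, 0.746% for the CArG box, 68.7% for the E-box and 11.2% for TATAAA. A match to these letters does not show that a factor binds there.

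Thick filament genes were called higher in 16 of 18 tested members, with 17 peaks and a median difference of 1.30. Myom1, which links myosin filaments at the M line, had signals of 1530, 890.2 and 1762 in the round arrays of litters 1, 2 and 3, of 3553, 2813 and 9394 in the flat arrays and of 1164, 1768 and 4568 in the hypertrophic arrays. Litter by litter each flat array was above its neighbours, but the hypertrophic array of litter 3 exceeded the flat arrays of litters 1 and 2, so the layers overlapped across litters. The difference was 1.42 ± 0.22 (standard error, 3 litters), with a limma adjusted p of 0.00221.

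Embryonic and newborn myosins showed the same order. Myh3, the embryonic heavy chain, read 9379, 4355 and 8074 in round, 17579, 12568 and 36534 in flat and 5388, 7877 and 20045 in hypertrophic arrays (1.31 ± 0.25, adjusted p 0.00597, limma). Myh8, the perinatal chain, read 24118, 10016 and 18451 in round, 35084, 30977 and 60726 in flat and 8405, 13404 and 29090 in hypertrophic arrays (1.37 ± 0.26, adjusted p 0.00597, limma). Every flat array of Myh8 was above all round and hypertrophic arrays. The slow chain Myh7 was also called, at 1.49 ± 0.34 (adjusted p 0.0151, limma), without passing both neighbours. The adult fast chains, Myh1 (1.05 ± 0.32, adjusted p 0.0586, limma) and Myh2 (1.46 ± 0.59, adjusted p 0.162, limma) did not pass. Myom2 and Mybpc2, a further M line protein and a myosin binding protein, were higher by 1.42 ± 0.23 and 1.53 ± 0.23.

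Thin filament genes were called in 16 of 17 tested members and 15 passed both neighbours. Neb, the nebulin ruler of the thin filament, had round signals of 1344, 1410 and 2554, flat signals of 4519, 4286 and 14009 and hypertrophic signals of 1486, 2544 and 5821 (1.56 ± 0.17, adjusted p 0.000276, limma). The hypertrophic array of litter 3 again lay above the flat arrays of the other litters. The fast troponin Tnnt3 (1.28 ± 0.15), the slow troponins Tnni1 (1.40 ± 0.21) and Tnnt1 (1.30 ± 0.24), the filament cap Tmod4 (1.27 ± 0.17) and the nucleator Lmod3 (1.38 ± 0.34) were higher too. Acta1, the skeletal actin, was higher by 0.61 ± 0.12 (adjusted p 0.00847, limma). Its flat signals were 61670, 64427 and 66130, against 34115 to 45987 in round and 34896 to 54045 in hypertrophic arrays, with no overlap. The flat arrays of the 3 litters were nearly level for this bright probe set, so its difference is not ranked against other genes, and a limit of the array at high signal was not tested. The exception in this list was Tpm3, a tropomyosin that many cell types also make, at -0.25 ± 0.12 (adjusted p 0.233, limma).

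Z disc and titin genes were called in 25 of 28 tested members, 22 of them past both neighbours. Actn2, the actinin that crosslinks thin filaments at the Z disc, read 2791, 1371 and 4014 in round, 7016, 6248 and 22054 in flat and 2123, 3032 and 9937 in hypertrophic arrays (1.64 ± 0.21, adjusted p 0.000752, limma). Ttn, the titin spring that spans the sarcomere, read 6431, 5157 and 8643 in round, 19803, 13126 and 36971 in flat and 5640, 7162 and 18650 in hypertrophic arrays (1.45 ± 0.18, adjusted p 0.00049, limma). In both genes the flat array of litter 3 was the highest of the 9. Klhl41, a sarcomere assembly protein, had flat signals of 2284, 2329 and 3570, above all round (597 to 1035) and hypertrophic (976 to 2032) arrays. Smpx (1.39 ± 0.14), Nrap (1.41 ± 0.23) and Myoz2 (1.31 ± 0.12) were also higher.

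Genes that couple excitation to contraction were called in 18 of 22 tested members. Ryr1, the calcium release channel, read 1403, 584 and 1527 in round, 2630, 2416 and 7445 in flat and 1004, 865 and 3367 in hypertrophic arrays (1.52 ± 0.21, adjusted p 0.00101, limma). The calcium pump Atp2a1 (1.48 ± 0.20), its inhibitor sarcolipin, Sln (1.34 ± 0.15), the calcium buffer Casq1 (1.46 ± 0.22), the release-complex protein Trdn (1.77 ± 0.35) and the membrane tether Jph1 (1.21 ± 0.23) were higher as well. The muscle energy list was called in 21 of 24 tested members. It also holds genes that are not energy enzymes, among them Ldb3, Art1 (1.49 ± 0.19) and Art3 (1.32 ± 0.22). Ckm, the cytosolic creatine kinase of muscle, had flat signals of 27129, 31283 and 54932, against 11682 to 21208 in round and 11162 to 35545 in hypertrophic arrays (1.02 ± 0.18, adjusted p 0.00367, limma). The mitochondrial kinase Ckmt2 (1.34 ± 0.25) and the muscle subunit of cytochrome oxidase, Cox6a2 (1.29 ± 0.21), had larger differences. The oxygen store Mb did not pass, at 0.84 ± 0.39 (adjusted p 0.223, limma).

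**Figure D2:**
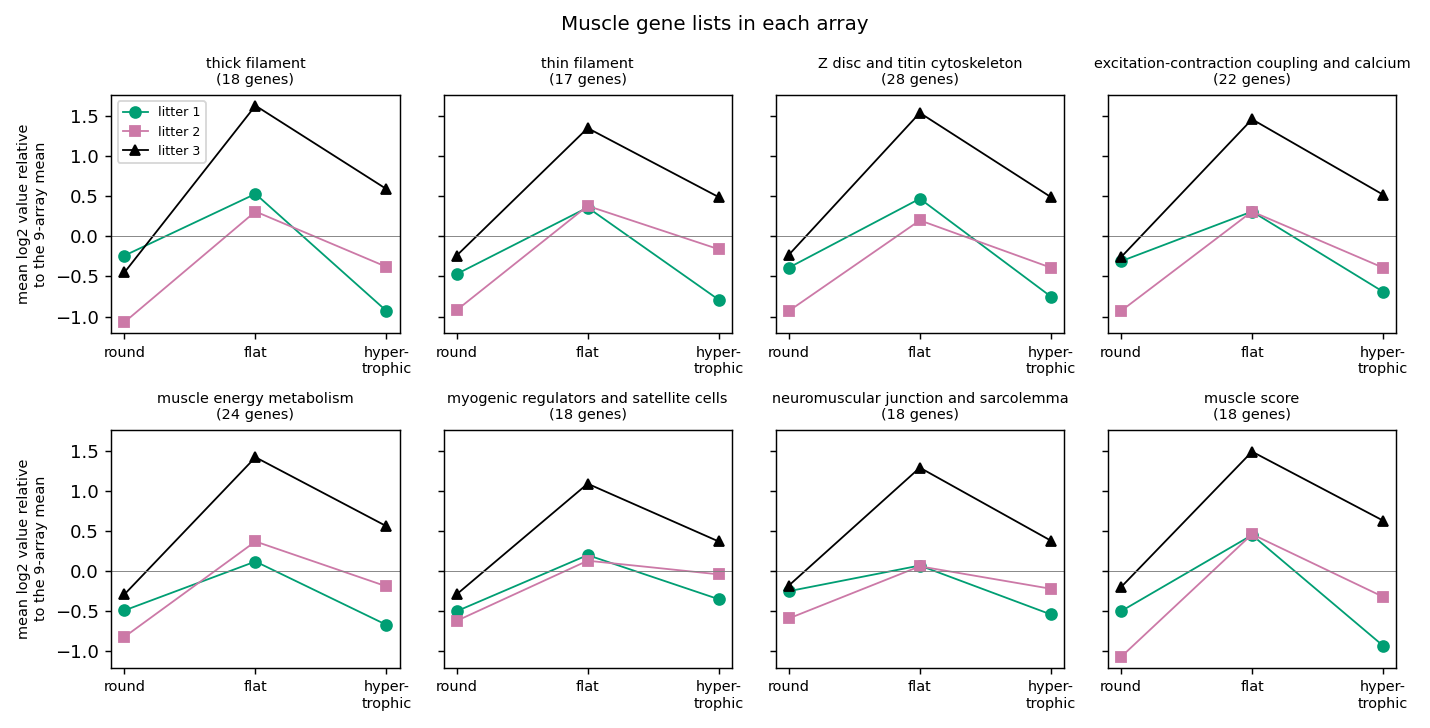
Mean over the tested genes of each muscle list, and of the 18 genes of a muscle score, of the log2 value relative to the gene's mean over the 9 arrays, with a line per litter. In every panel and litter the flat array lies above the round and hypertrophic arrays, and the flat array of litter 3 is the highest of the 9, at 1.49 for the score against 0.45 and 0.46 in the flat arrays of litters 1 and 2.

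The list of myogenic regulators and satellite cell genes was less uniform, with 9 of 18 tested members called higher and 1 lower. Myf6, a transcription factor of differentiating fibres, read 252, 176 and 305 in round, 536, 611 and 2069 in flat and 111, 337 and 692 in hypertrophic arrays (1.62 ± 0.30, adjusted p 0.00504, limma). Myog (1.13 ± 0.18), Myod1 (1.04 ± 0.21) and Myf5 (1.27 ± 0.29) were called as well. Pax7, the satellite cell factor, was not called at 0.93 ± 0.34 (adjusted p 0.118, limma): its flat signal of 694 in litter 3 stood above 189 and 116 in the other litters. Mef2a, which is not restricted to muscle, was the member called lower, at -0.40 ± 0.10 (adjusted p 0.0249, limma), with flat signals of 3214, 3442 and 4097 against 4260 to 4794 in round and 4268 to 5345 in hypertrophic arrays.

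Eya1, a transcriptional coactivator on the same list that is also active in other embryonic tissues, peaked with another pattern between litters. Its round signals were 414, 519 and 443, its flat signals 1386, 1330 and 693 and its hypertrophic signals 524, 491 and 248 (1.29 ± 0.18, adjusted p 0.00121, limma). No flat array overlapped another layer, yet the flat array of litter 3, the richest in sarcomere transcripts, had the lowest of the flat values. Genes of the neuromuscular junction and sarcolemma were called in 6 of 18 tested members, with a median of 0.64. The called members included Popdc3 (1.18 ± 0.24), Sgca, a sarcoglycan of the fibre membrane (1.22 ± 0.21), and the small heat shock proteins Hspb2 (1.07 ± 0.17), Hspb3 (1.27 ± 0.25) and Hspb7 (1.17 ± 0.16). The synaptic kinase Musk (-0.15 ± 0.45, adjusted p 0.888, limma), the fetal receptor subunit Chrng (1.39 ± 0.42, adjusted p 0.0616, limma) and Dmd, dystrophin (0.61 ± 0.21, adjusted p 0.102, limma) did not pass.

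A muscle score, the mean log2 deviation of 18 sarcomere and muscle genes from their average over the arrays, put the litters side by side. It was -0.50, -1.07 and -0.20 in the round arrays of litters 1, 2 and 3, 0.45, 0.46 and 1.49 in the flat arrays and -0.93, -0.32 and 0.63 in the hypertrophic arrays. Muscle RNA thus also varied within a layer, and the hypertrophic array of litter 3 scored above the flat arrays of litters 1 and 2. Within a litter the flat array exceeded the mean of its neighbours by 1.16, 1.16 and 1.27. All 18 genes of the score are themselves peaks, so the score is no separate measure of them. Summed over these genes, the signal was 408615 to 668048 in flat, 175980 to 288145 in round and 175997 to 415020 in hypertrophic arrays, and flat and hypertrophic ranges overlapped.

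**Figure D3:**
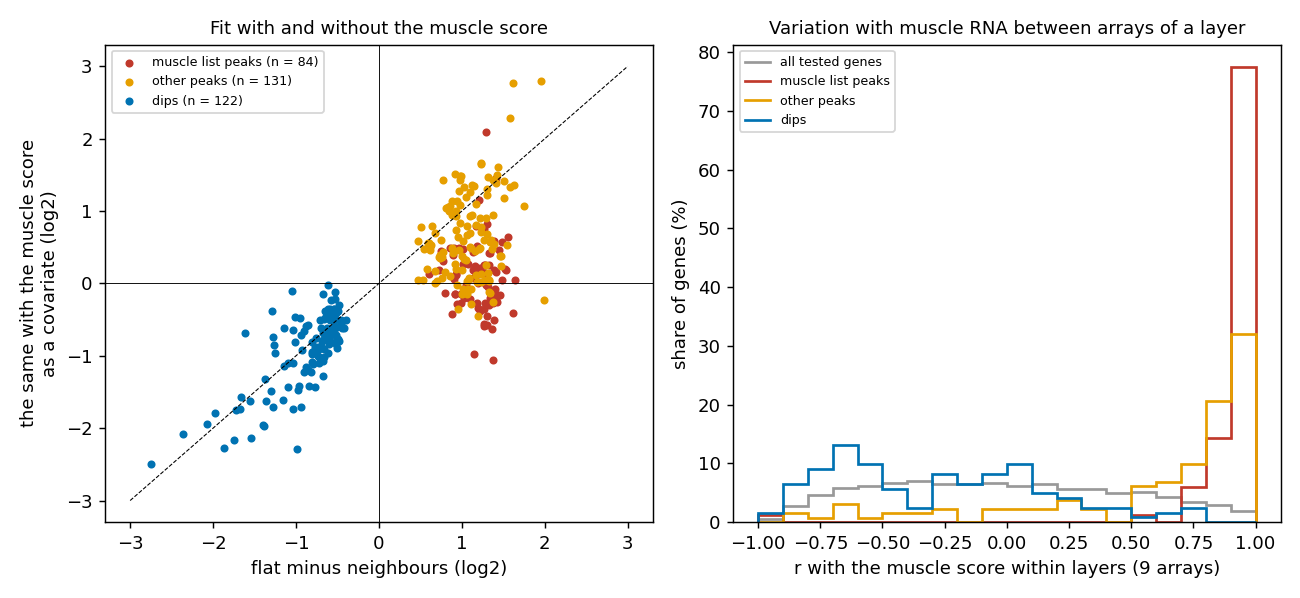
Left, the log2 difference flat minus neighbours of peaks and dips past both neighbours (horizontal) and the same from the fit with the muscle score as a covariate (vertical), with a dashed line where both are equal. Right, the share of genes in percent by their correlation with the score within layers. Muscle peaks lie far below the dashed line (median 1.27 and 0.09) and dips along it (median -0.72 and -0.79), and 97.6% of the muscle peaks correlate above 0.7, against 62.6% of the other peaks, 2.46% of the dips and 8.27% of all tested genes.

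Following the score from array to array, after removal of layer means, described which other peaks shared its pattern. The 9 arrays are not independent points here, since they share layers and litters, so correlations are descriptive. Of the 84 muscle peaks past both neighbours, 82 correlated with the score above 0.7, and of the 67 outside the score's own genes, 65 did, with a median of 0.94. Of the 131 other peaks past both neighbours, 82 did (62.6%), and 29 lay under 0.3. With the score as a covariate the median difference of the 84 muscle peaks went from 1.27 to 0.09, which the 17 score genes among them partly fix. That of the 67 muscle peaks outside the score went from 1.22 to 0.13, that of the 82 other peaks above 0.7 from 1.06 to 0.37 and that of the 29 under 0.3 from 1.10 to 1.33. Over all tested genes, that fit called 22 higher (0.194%) and 27 lower (0.239%). Since the score is higher in the flat array within each litter, it also widened the median standard error from 0.155 to 0.372, so lost calls combine smaller estimates with larger errors.

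Outside the muscle lists, the 14 highest peaks past both neighbours included genes known from muscle. Tmem182, a membrane protein of muscle, read 394, 257 and 626 in round, 865, 929.9 and 3275 in flat and 347, 498 and 1146 in hypertrophic arrays and correlated with the score at 0.97. Nexn, an actin binding Z disc protein, Cap2, an actin regulator of striated muscle, and Gatm, a creatine synthesis enzyme, correlated at 0.94, 0.96 and 0.89, and were higher by 1.34 ± 0.16, 1.46 ± 0.19 and 1.37 ± 0.15. Asb5 (1.55 ± 0.27), the striated muscle ribosomal protein Rpl3l (1.30 ± 0.18), Hsf2bp (1.51 ± 0.19), the lipid droplet gene Cidea (1.99 ± 0.40) and Ppara, a nuclear receptor of fatty acid oxidation (1.62 ± 0.29), correlated between 0.57 and 0.84. Ppara was dim in round litters 1 and 2 (41.8 and 26.1), so its difference there rests on signals near the pseudocount. The same holds for Cidea in hypertrophic litters 1 and 2 (35.1 and 21.4). Against round, Cidea passed narrowly (1.44, adjusted p 0.0479, limma).

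The remaining 5 of the 14, Scube2, Shisa3, Upk1b, Vwf and Tpsab1, correlated with the score under 0.3. Scube2, a secreted protein that helps release hedgehog ligands, read 337, 422 and 369.5 in round, 1116, 1244 and 867 in flat and 339.6, 452 and 393 in hypertrophic arrays. The flat arrays did not overlap the others, and both neighbours were nearly level (1.41 ± 0.15, adjusted p 0.000214, limma, correlation -0.35). Shisa3, an endoplasmic reticulum protein described as a brake on Wnt and FGF receptors, read 50.7, 90.4 and 84.4 in round, 309, 282 and 291 in flat and 66.2, 132 and 114 in hypertrophic arrays (1.51 ± 0.27, adjusted p 0.00479, limma). Upk1b, a tetraspanin of the uroplakin family, read 249, 201 and 82.2 in round, 533, 724 and 376 in flat and 327, 181 and 116 in hypertrophic arrays (1.44 ± 0.23, adjusted p 0.00229, limma, correlation -0.81).

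Vwf, the clotting factor stored by endothelial cells, read 447, 216 and 407 in round, 1462, 588 and 749 in flat and 246, 84.6 and 74.4 in hypertrophic arrays (1.95 ± 0.21, adjusted p 0.000276, limma). It kept its call with the muscle score as a covariate, at 2.79 (adjusted p 0.0343, limma). Other endothelial genes went the other way: of 17 tested, Vwf alone was called higher and 8 were called lower, 7 were dips, and the median was -0.46. Kdr, the main VEGF receptor, read 2005, 2113 and 1947 in round, 997, 1691 and 1152 in flat and 1990, 2094 and 1919 in hypertrophic arrays (-0.68 ± 0.13, adjusted p 0.00649, limma). Esam (-0.54 ± 0.10), Plvap (-0.62 ± 0.10) and Egfl7 (-0.46 ± 0.11) were dips past both neighbours, and Tie1, Flt1 and Eng were dips that were not called. Cdh5, the endothelial cadherin, was called lower at -0.63 ± 0.12 through its hypertrophic signals of 1621 to 1734, against 675 to 820 in flat and 708 to 873 in round. Summed over the list, signals were 17385 to 19952 in flat, 22969 to 25213 in round and 26013 to 28224 in hypertrophic arrays.

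The tryptase Tpsab1, a mast cell granule protease, also stood among the 14, at 721, 686 and 867 in round, 2025, 1667 and 1729 in flat and 869, 555 and 872 in hypertrophic arrays (1.23 ± 0.14, adjusted p 0.000346, limma). A mast cell list drawn up after these values were seen, and therefore no support, had 8 tested members, of which 6 were called higher and 5 passed both neighbours. The carboxypeptidase Cpa3 read 1060, 1032 and 1375 in round, 2506, 1647 and 2300 in flat and 1002, 978 and 1196 in hypertrophic arrays (0.93 ± 0.13, adjusted p 0.00101, limma). Tpsb2 (0.98 ± 0.15), the chymase Cma1 (0.77 ± 0.16) and the histamine enzyme Hdc (1.12 ± 0.15) were peaks past both neighbours. Kit, the mast cell growth factor receptor, did not differ detectably, at -0.07 ± 0.25 (adjusted p 0.903, limma).

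Iron genes, likewise listed after their values were seen, held 3 peaks past both neighbours among 13 tested members, against 1.9% of all tested genes. No other member was called in either direction, and the list median was 0.03. Tfrc, the transferrin receptor that takes up iron, read 2072, 2315 and 2298 in round, 5411, 5686 and 5002 in flat and 3794, 2766 and 3230 in hypertrophic arrays (0.99 ± 0.12, adjusted p 0.00049, limma). Slc40a1, the iron exporter ferroportin, read 1788, 2277 and 2337 in round, 6520, 5980 and 4425 in flat and 2656, 2389 and 2883 in hypertrophic arrays (1.23 ± 0.15, adjusted p 0.00049, limma). In both genes every flat array was above all 6 others. Hjv, hemojuvelin, is made in skeletal muscle and correlated with the score at 0.99. A smooth muscle and pericyte list made in the same way had 7 of 15 tested members higher and 2 lower, with a median of 0.08. The keratinocyte list had 4 tested members, with 1 called higher, 1 lower and a median of 0.15, and 6 others, Krt14 and Trp63 among them, were under the brightness limit. Krt5, a keratin of basal epithelium, was a peak (1.75 ± 0.23, adjusted p 0.000772, limma) with flat signals of 840.1, 1096 and 608. Dsp, the desmosome protein desmoplakin, was a dip (-1.28 ± 0.27, adjusted p 0.0107, limma) that did not pass against round (-0.62, adjusted p 0.209, limma). Its signals were 163.9, 100.9 and 64.7 in round, 87, 51.2 and 42.6 in flat and 335.8, 352.7 and 224.1 in hypertrophic arrays.

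**Figure D4:**
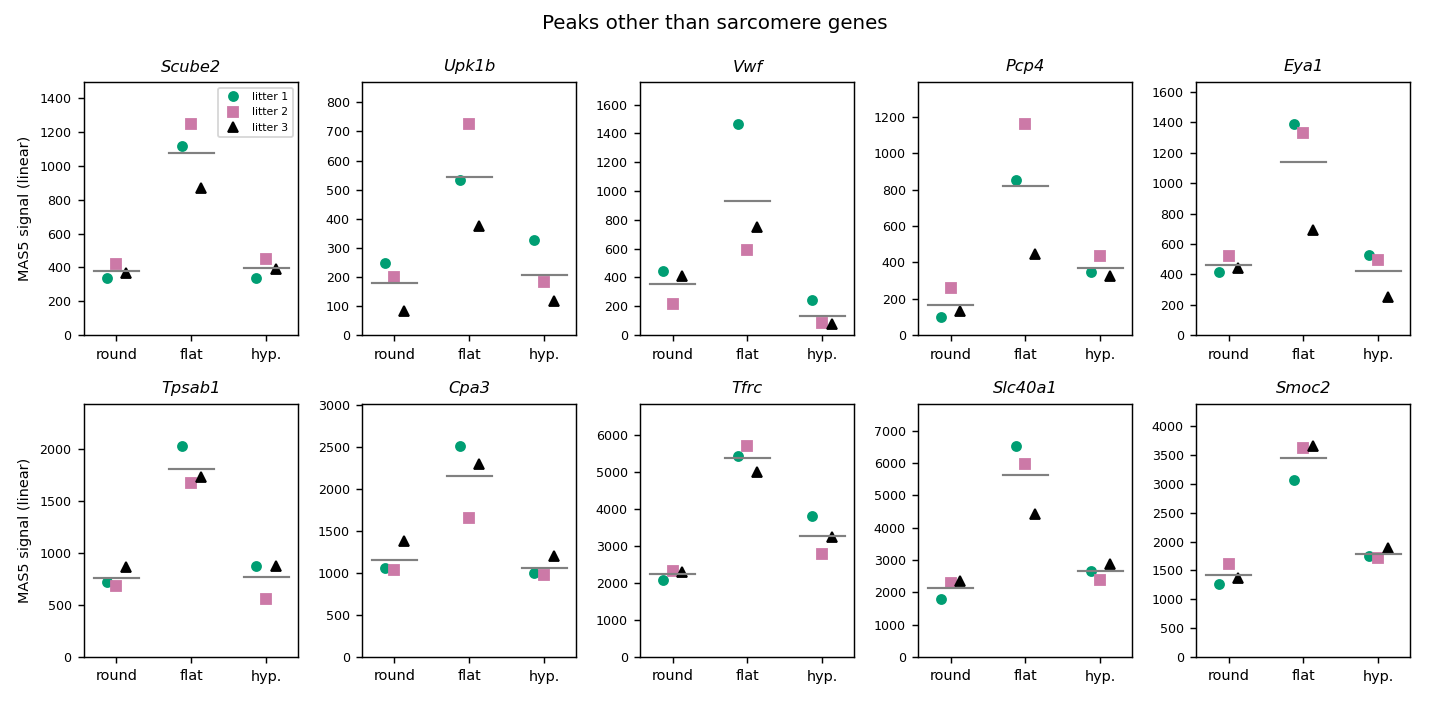
MAS5 signal of 10 peaks other than sarcomere genes, on linear axes from 0, with a dot per litter and a bar at the mean of each layer. The flat dots lie above the neighbours within each litter, and Eya1 is lowest in the flat array of litter 3 (693 against 1386 and 1330).

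Among cartilage lists, the flat columnar list was mixed: of 21 tested members, 5 were called higher and 3 lower, 4 were peaks and 1 was a dip, with a median of 0.05. Pcp4, a calmodulin binding peptide, read 101, 259.8 and 132 in round, 854, 1158 and 446 in flat and 348, 435 and 323 in hypertrophic arrays (1.58 ± 0.22, adjusted p 0.000992, limma). Matn1, a cartilage matrilin, read 825, 1479 and 1371 in round, 1506, 2881 and 2086 in flat and 789.7, 799.9 and 1256 in hypertrophic arrays (0.97 ± 0.17, adjusted p 0.00345, limma), and no flat array overlapped another layer, although the flat array of litter 1 was close to the round array of litter 2. Hapln1, the link protein of cartilage aggrecan, was on the other side, at 8647, 8754 and 10298 in round, 1616, 2142 and 1510 in flat and 1492, 1768 and 1931 in hypertrophic arrays (-1.19 ± 0.13, adjusted p 0.000276, limma). Its flat value was above the hypertrophic one in litters 1 and 2, so it was no dip. Epyc, a small proteoglycan of columnar cartilage, was a peak of 1.03 ± 0.21 with the round arrays close behind (925, 1597 and 1470 in flat, 489.5, 1274 and 1099 in round). Epyc did not pass against round (0.538, adjusted p 0.164, limma). Smoc2, a matricellular calcium binding protein of the BMP list, was steadier: 1272, 1619 and 1376 in round, 3072, 3633 and 3657 in flat and 1756, 1715 and 1887 in hypertrophic arrays (1.10 ± 0.11, adjusted p 0.000209, limma).

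By their medians, lists of the neighbouring zones followed the gradient, but single members left it. Wif1, a joint surface gene, was a dip past both neighbours. So was Bmp6, the 1 gene called lower among the prehypertrophic genes and also the 1 among the hypertrophic genes. The lists share members, such as Sp7 and Alpl, which are also osteoblast genes, so their counts overlap. Of 15 joint surface and resting genes, 8 were called lower and 0 higher by limma (10 and 0 at an unadjusted p under 0.05), and the median was -1.70 against round and 0.45 against hypertrophic. Of 10 prehypertrophic genes 5 were higher and 1 lower, of 13 hypertrophic genes 6 were higher and 1 lower and of 9 osteoblast genes 5 were higher and 1 lower. None of these higher genes was a peak: Panx3, a channel protein of prehypertrophic cells, read 305 to 494 in round, 3040 to 7744 in flat and 11946 to 13099 in hypertrophic arrays, and the osteoblast factor Sp7 read 226 to 352, 856 to 2566 and 2076 to 3908. Their contrast is positive since the flat value lies above the midpoint of 2 unlike neighbours on the log2 scale.

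Some mitochondrial genes were higher in the flat layer. Of 31 tested oxidative phosphorylation genes, 9 were called higher and 0 lower by limma (17 and 0 at an unadjusted p under 0.05), 10 were peaks and the median was 0.32. Ndufv2, a subunit of complex I, read 4252, 4529 and 5604 in round, 6577, 7694 and 11143 in flat and 5994, 6900 and 7783 in hypertrophic arrays (0.53 ± 0.10, adjusted p 0.00701, limma), and the flat and hypertrophic ranges overlapped. It correlated with the muscle score at 0.82, and with the score as a covariate its difference was 0.45 (adjusted p 0.462, limma). Of 24 citrate cycle and fatty acid oxidation genes, 4 were higher and 6 were peaks, led by Idh3a, a subunit of isocitrate dehydrogenase (0.78 ± 0.12). None of these genes passed both neighbours. The 27 S phase genes and 30 mitosis genes gave 0 calls by limma, with 2 and 0 at an unadjusted p under 0.05 and medians of 0.07 and 0.01.

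The 122 dips past both neighbours differed from the peaks in their relation to muscle. They correlated with the score at a median of -0.28, their median difference was -0.72, and with the score as a covariate it was -0.79. Of these dips, 33 differed by more than 1 log2 unit, and the hypertrophic layer was the higher neighbour in 61. Their neighbours lay 0.21 apart in the median, against 0.32 for the peaks past both neighbours and 0.30 over all tested genes. The rule that chose the dips uses these neighbour values, so the gap is a description only.

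Bmp2, Wif1, Lgr6 and Gfra1 were among the 14 deepest dips past both neighbours. Bmp2, a ligand that drives chondrocyte maturation and bone formation, read 4946, 5400 and 4221 in round, 1697, 1137 and 950.2 in flat and 3390, 3893 and 2457 in hypertrophic arrays (-1.66 ± 0.14, adjusted p 0.000134, limma). Wif1, a secreted Wnt inhibitor, read 2307, 3701 and 3246 in round, 1180, 789 and 575 in flat and 2443, 2093 and 1859 in hypertrophic arrays (-1.61 ± 0.20, adjusted p 0.00049, limma). Lgr6, a receptor for R-spondins, which strengthen Wnt signals, read 1091, 1171 and 1108 in round, 94.2, 226 and 165 in flat and 489, 464 and 459.6 in hypertrophic arrays (-2.07 ± 0.19, adjusted p 0.000134, limma). Gfra1, the receptor subunit that binds GDNF, read 584, 701 and 569 in round, 119, 124 and 290.2 in flat and 596, 501 and 684 in hypertrophic arrays (-1.72 ± 0.22, adjusted p 0.000615, limma). In all 4 genes, each flat array was below the other 6 arrays.

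In the BMP list as a whole, 7 of 21 tested members were called lower and 2 higher, with a median of -0.31. Bmp6, a ligand of maturing chondrocytes, read 628, 650.3 and 949 in round, 403, 316 and 362 in flat and 612, 705 and 584 in hypertrophic arrays (-0.87 ± 0.17, adjusted p 0.0062, limma). The 2 members called higher, Smoc2 and the BMP binding protein Bmper (0.83, adjusted p 0.00844, limma), were peaks past both neighbours. The antagonist Smoc1, a paralogue of Smoc2, was called lower at -1.31 ± 0.15 but was no dip, since its 2827 to 3340 in round stood against 252 to 349 in flat and 172 to 220 in hypertrophic arrays.

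The Wnt list was split, with 5 of 21 tested members higher and 3 lower and a median of 0.21. Wnt4 read 2591, 852 and 1029 in round, 964, 604 and 706 in flat and 1782, 1586 and 1737 in hypertrophic arrays (-0.98 ± 0.20, adjusted p 0.00723, limma), a dip past both neighbours in which round litter 2 overlapped flat litter 1. Apcdd1, a membrane inhibitor of Wnt signalling, read 309.8, 528 and 490.4 in round, 5247, 3517 and 2363 in flat and 3179, 2437 and 2171 in hypertrophic arrays, a peak (1.70 ± 0.22, adjusted p 0.000695, limma) close to its hypertrophic neighbour. Apcdd1 did not pass against hypertrophic (0.455, adjusted p 0.307, limma). The ligand Wnt10a was called higher at 1.5 ± 0.30, with round signals of 10.7 to 72.5 near the pseudocount. In the hedgehog list 1 of 13 tested members was higher (7.69%, against 4.76% of all tested genes) and 3 lower (23.1%, against 4.89%). Its peak was Gpc3, a proteoglycan that binds the ligand (0.55 ± 0.10), which did not pass against round (0.275, adjusted p 0.147, limma). Hhip, the inhibitor that hedgehog signalling induces (-1.11 ± 0.27), Disp1, needed to release the ligand (-0.74 ± 0.15), and the co-receptor Boc (-0.55 ± 0.14) were lower without being dips.

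Capg, Lgals3, S100a4, Fxyd5 and Ptgis were also among the 14 deepest dips. Capg, which caps actin filaments, read 2420, 1942 and 2004 in round, 1013, 613 and 538 in flat and 2706, 3018 and 1847 in hypertrophic arrays (-1.68 ± 0.15, adjusted p 0.000134, limma). Lgals3, galectin 3, read 5913, 3041 and 3708 in round, 1590, 1186 and 1061 in flat and 3680, 3373 and 3224 in hypertrophic arrays (-1.54 ± 0.13, adjusted p 0.000134, limma). S100a4, a calcium binding protein of motile cells, read 7079, 2993 and 4103 in round, 2397, 1378 and 1183 in flat and 4647, 3783 and 3510 in hypertrophic arrays (-1.39 ± 0.15, adjusted p 0.000246, limma). Each flat array of these genes was below all others. Fxyd5, a regulator of the sodium pump, and Ptgis, prostacyclin synthase, were lower by the same margin of -1.38 (± 0.12 and ± 0.14).

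Anxa8, an annexin, had the largest difference of the named dips at -2.75 ± 0.25 (adjusted p 0.000134, limma), but most of it came from 1 side: round signals were 3884, 2864 and 3306, flat signals 404, 124 and 67.7 and hypertrophic signals 521, 415 and 345. Ackr2, a receptor that scavenges chemokines, read 1349, 1414 and 1522 in round, 226, 269 and 223 in flat and 461, 872 and 566 in hypertrophic arrays (-1.86 ± 0.16, adjusted p 0.000134, limma). Fam167b (-2.36 ± 0.32), Tmem178 (-1.97 ± 0.35) and the serpin Serpinb8 (-1.74 ± 0.40) fell to signals of 14.9 to 26 in 1 or more flat arrays, near the pseudocount, so the size of their differences is uncertain. In litters 1, 2 and 3 the difference was -3.374, -1.323 and -0.535 for Serpinb8 and -1.259, -3.366 and -1.289 for Tmem178. With the muscle score as a covariate, 9 of the 122 dips stayed past the limma threshold, among them Lgals3 (-2.13, adjusted p 0.0129), Ptgis (-1.97, adjusted p 0.0213), S100a4 (-1.96, adjusted p 0.0304), Ackr2 (-2.27, adjusted p 0.0337) and Wnt4 (-2.29, adjusted p 0.0129). In Lgals3, Ptgis, S100a4 and Wnt4, though not in Ackr2, the round array of litter 1 was the highest round array. That array stood apart in its control probe sets, and whether these calls depend on it was not tested.

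**Figure D5:**
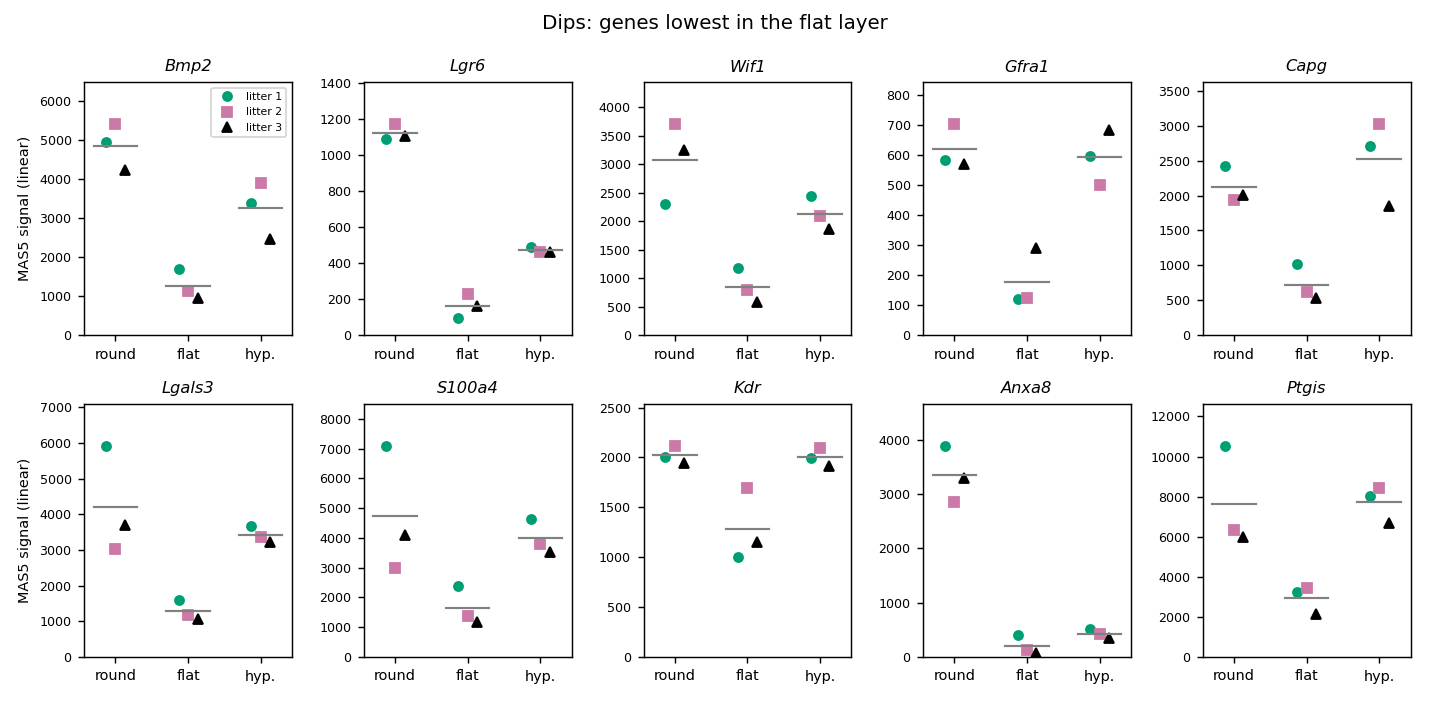
MAS5 signal of 10 dips on linear axes from 0, with a dot per litter and a bar at the mean of each layer. The flat dots lie below both neighbours, as for Lgr6 at 94.2 to 226 against 459.6 to 1171 in the other layers, and for Anxa8 the flat and hypertrophic dots are close together.

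Immediate early genes, which respond within minutes to growth factors or handling of tissue, were called lower in 12 of 26 tested members and higher in 0 by limma (17 and 0 at an unadjusted p under 0.05), with 5 dips. The median was -0.87 against round and 0.01 against hypertrophic, so the shift lay on the round side. Egr3, a zinc finger factor, read 587, 1453 and 1100 in round, 314, 379 and 429 in flat and 372, 1075 and 639 in hypertrophic arrays (-1.04 ± 0.19, adjusted p 0.00458, limma). Klf2 was called lower at -1.21 ± 0.15 with flat signals of 738 to 1590 and hypertrophic signals of 1298 to 1528, both under the 4857 to 5868 in round arrays.

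Osteoclast genes were called lower in 7 of 13 tested members and higher in 0 by limma (9 and 0 at an unadjusted p under 0.05), but 3 were dips. Itgb3, the beta 3 integrin, read 666, 544 and 562 in round, 568, 573 and 524 in flat and 3689, 3990 and 2750 in hypertrophic arrays, so its difference of -1.33 ± 0.13 is that of the hypertrophic layer alone. Nfatc1, a transcription factor of osteoclasts that other cells also use, was a dip past both neighbours at 1844, 2265 and 2236 in round, 1047, 1065 and 1015 in flat and 1895, 1897 and 2054 in hypertrophic arrays (-0.94 ± 0.11, adjusted p 0.00049, limma). Hypoxia and glycolysis genes were called lower in 6 of 27 tested members and higher in 1, with Slc2a1, the main glucose carrier, as the dip past both neighbours (-0.61 ± 0.12).

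Lists of other cell types ranged widely around the background of 4.76% higher and 4.89% lower, and most had few tested members. Of 20 tendon, fibroblast and perichondrium genes, 1 was higher (Aspn, 0.56 ± 0.15) and 1 lower (Cd34, -0.63 ± 0.14), with a median of 0.15. Of 16 macrophage genes 1 was higher (6.25%) and 2 lower (12.5%). Nerve genes (7 tested), neutrophil genes (5) and erythroid genes (2) had 0 calls by limma, with 1, 3 and 0 at an unadjusted p under 0.05. Of 7 adipocyte genes, 2 were higher, Plin4, a lipid droplet coat protein (1.01 ± 0.27), and Car3, a carbonic anhydrase that muscle also makes (0.90 ± 0.16, correlation with the muscle score 0.88). In the heat shock list the 1 call among 15 tested members was Hspb1, a small heat shock protein abundant in muscle, at 1.02 ± 0.11 (adjusted p 0.000276, limma, correlation 0.95).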

How the data were processed

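MAS5 signal intensities were deposited by the authors as 1 table of 45101 probe sets by 9 arrays, made with Affymetrix Expression Console, per the submitters' processing notes; versions are not given in the sources used here. On each array the mean without 2% of values at either end was 500.003, so the deposited intensities were already scaled. Besides 64 controls, 34945 probe sets named 1 gene, 932 several and 9160 none. Each gene was read from its brightest single-gene probe set, and genes with a mean above 7.212 (log2), the median probe set, were tested.

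The contrast flat minus the mean of round and hypertrophic was fitted with limma 3.58.1 in R 4.3.3, with litter as a fixed block, a mean-variance trend and Benjamini-Hochberg adjustment over 11313 genes; every adjusted p is from such a fit. The fit was tested on simulated data. The labels state that a sample came from 1 litter; same-numbered arrays correlated at 0.167 to 0.517 after removal of layer means, and others at -0.434 to 0.081. Alternatives varied the pseudocount, filter, scaling, probe set rule, block, variance trend and arrays used, and added the muscle score as a covariate.

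Named were the 14 highest peaks outside the 7 muscle lists and the 14 deepest dips past both neighbours, the 3 highest peaks of each muscle list and up to 4 called members of each list with the largest differences. Other genes were added after their values were seen. The rule and the lists were chosen with earlier results of these data known, and the mast cell, smooth muscle and iron lists after these values were seen.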

Additional observations from a re-analysis of the deposited data

How the results depend on the processing

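The main counts were 539 higher, 553 lower, 215 peaks and 122 dips past both neighbours and 110 muscle members higher. Without the replicate block they were 93, 162, 29, 34 and 10. With the muscle score as a covariate they were 22, 27, 8, 17 and 1. Without a variance trend there were 329 genes lower, 140 peaks and 71 dips past both neighbours, and with the mean of a gene's probe sets 335 lower and 72 dips past both. Centring arrays on their medians gave 589 peaks and 1180 dips among tested genes, against 898 and 851 in the main setting. A gap of at least 0.25 gave 297 peaks and 172 dips. Leaving out 1 array or litter gave 260 to 701 genes higher, 200 to 676 lower, 65 to 121 muscle members higher and 0 to 1 muscle members lower. In the same fits, with the peak and dip rule over the other 2 litters, 70 to 289 peaks and 33 to 125 dips passed both neighbours. Over 2 litters there were 1454 to 1547 peaks and 1411 to 1665 dips among tested genes. Of 122 named genes, 70 stayed past the threshold in each of these fits and 0 changed sign. Without the replicate block 53 of the 122 kept their call, and with the muscle score as a covariate 10 did. With the mean of probe sets Laptm5 turned to 0.09. With the covariate the sign turned for Cidea (-0.22), Myom2 (-0.26), Myom1 (-0.16), Myh7 (-1.06), Tnni1 (-0.08), Lmod3 (-1.06), Tnnt1 (-0.44), Trdn (-0.89), Casq1 (-0.16), Art3 (-0.05), Ldb3 (-0.27), Ckmt2 (-0.20), Myf6 (-0.42), Myf5 (-0.42), Hspb3 (-0.36), Plin4 (-0.43), Car3 (-0.14), Atp6v0d2 (0.30) and Hhip (0.04). The cause of these changes was not tested. The remaining settings, 2 other pseudocounts, no filter and quantile normalization, left these counts within 1.5 times of the main ones.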
